A study of Homo sapiens with 12 samples.

Results

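Aminoacyl-tRNA synthetases are the enzymes that attach each amino acid to its own transfer RNA (tRNA), and their RNA was followed here in 3 gastric cancer cell lines, each sorted into a CD133+ and a CD133- fraction. The genes were taken from the deposited expression table by their symbols. They comprise 35 of the 34595 genes with a value, with 20 genes of cytosolic enzymes (AARS, CARS, DARS, EPRS, FARSA, FARSB, GARS, HARS, IARS, KARS, LARS, MARS, NARS, QARS, RARS, SARS, TARS, VARS, WARS and YARS) and 15 genes of mitochondrial enzymes, whose symbols end in 2 (AARS2, CARS2, EARS2, FARS2, IARS2, LARS2, MARS2, NARS2, PARS2, RARS2, SARS2, TARS2, VARS2, WARS2 and YARS2).

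The 6 populations were KATO-III CD133+, KATO-III CD133-, SNU-216 CD133+, SNU-216 CD133-, SNU-601 CD133+ and SNU-601 CD133-, each measured on 2 Illumina BeadChip arrays, 12 in all. The lines are established human gastric cancer lines grown in the same serum-supplemented medium, with no treatment or genetic change, and CD133 is the membrane glycoprotein encoded by PROM1. Cells were separated by flow cytometry after antibody staining, the brightest taken as CD133+ and the dimmest as CD133-, so that the cells between them were not measured. The deposited study description names SNU201 where the array labels have SNU-216, and the labels were followed. Whether the 2 arrays of a population came from separate sorts is not stated, so every p-value measures the spread between arrays, which may be technical.

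The CD133 sort was visible in the values. PROM1 intensity lay between 4677 and 9513 on the 6 CD133+ arrays and between 1315 and 4493 on the 6 CD133- arrays, so CD133- cells had less PROM1 RNA and did not lack it. Within each line every CD133+ array was above every CD133- array. The epithelial genes EPCAM, KRT8, KRT18, KRT19 and CDH1 were above the background floor on all 12 arrays, while PTPRC, CD3E, PECAM1 and COL3A1, which mark leukocytes, T cells, endothelium and fibroblasts, were above it on none. COL1A1 was above the floor on 7 arrays, and VIM on 12, at 226.6 to 583.3. Arrays of the same population correlated at 0.993 to 0.995 over log2 values, and no array stood apart.

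Each synthetase activates its amino acid with ATP and transfers it to the matching tRNA, which the ribosome then reads. Human cells run this reaction separately in the cytosol and in mitochondria, where the proteins encoded by mitochondrial DNA are made, and nearly every mitochondrial enzyme has a nuclear gene of its own. KARS and GARS are exceptions, since each encodes both forms. The cytosolic enzymes fall into class I and class II by the fold of their catalytic domain, and several of them sit in a multi-synthetase complex held by the scaffold proteins AIMP1, AIMP2 and EEF1E1. Many cytosolic synthetase genes are known targets of ATF4, the transcription factor of the amino acid and stress response. Cells that grow and divide draw on charged tRNA for protein synthesis.

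ATF4 with a C/EBP partner binds a composite element with the letters TGATGNAA. These letters were searched on both strands of the RefSeq promoters (GRCh38.p14), from 250 bases before to 50 bases after a start. The element was found in 1266 of 34943 promoters (3.62%). Of the 35 genes, 29 had a promoter in the table (16 cytosolic, 13 mitochondrial), and 7 of the 16 cytosolic but 1 of the 13 mitochondrial genes held the element. A gene was counted if any of its promoters held the element, while the 3.62% is a share of promoters, so the units differ. Windows of 30 bases around the 8 matches are printed below, because the element was counted more often in the cytosolic than in the mitochondrial set and was not used to choose the genes. They run 5′ to 3′ on the strand of the gene, and capitals mark the match, which reads TTGCATCA or TTTCATCA where it lies on the other strand.

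AARS, chr16:70289675-70289704 (-): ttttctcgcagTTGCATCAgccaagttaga

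CARS, chr11:3057407-3057436 (-): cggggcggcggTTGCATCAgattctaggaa

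GARS, chr7:30594834-30594863 (+): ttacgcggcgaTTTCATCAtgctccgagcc

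IARS, chr9:92293692-92293721 (-): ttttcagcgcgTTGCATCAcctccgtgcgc

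MARS, chr12:57488053-57488082 (+): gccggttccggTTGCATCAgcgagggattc

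NARS, chr18:57621804-57621833 (-): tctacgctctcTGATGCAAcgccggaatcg

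TARS, chr5:33440956-33440985 (+): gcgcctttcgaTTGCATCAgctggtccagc

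YARS2, chr12:32756076-32756105 (-): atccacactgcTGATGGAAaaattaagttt

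In 6 of the 7 cytosolic genes, all but GARS, the match had the core TGATGCAA. The matches of CARS, MARS, IARS and GARS began 2, 4, 13 and 33 bases before the start, so those of CARS and MARS ran across it. Those of TARS and NARS began at base 3 and base 15 of the transcript, and those of AARS and YARS2 187 and 197 bases upstream. CARS, GARS and TARS each have 2 starts in the RefSeq table, and 1 of them carries the match. A match of letters is a description of the sequence and does not show that a factor binds there.

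The values are background-subtracted, quantile-normalized intensities on a linear scale, which compare a gene between arrays but not with another gene. Values under a floor of 32.7 were set to it before log2 was taken, and limma was run on the 20147 genes that exceeded it on 2 or more arrays. A gene was called at a Benjamini-Hochberg adjusted p of at most 0.05 over all 20147 genes. Differences are log2 intensity of CD133+ minus CD133- cells, with the standard error (SE) of the fit. Of the 35 genes, 33 were above the floor on all 12 arrays. FARSB was above it on 9, and WARS2, the mitochondrial tryptophan enzyme, on none, with values of -22.7 to -0.179, which left 34 genes in the tests. Among these 34 the median SD between the arrays of a population was 0.076 on the log2 scale.

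**Figure D1:**
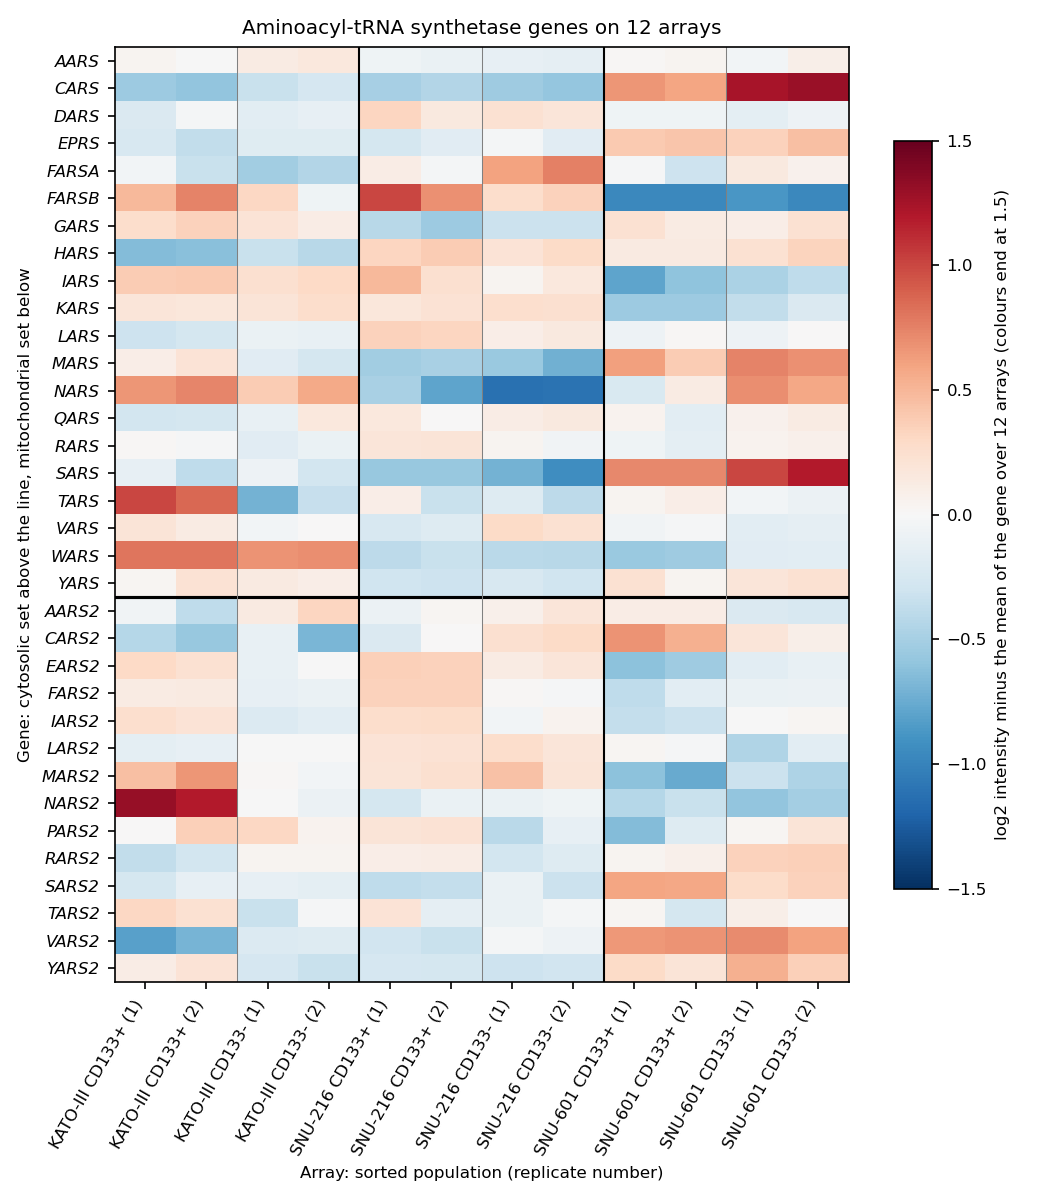
Log2 intensity of the 34 tested synthetase genes (rows, cytosolic above mitochondrial) on the 12 arrays (columns, grouped by line and CD133 fraction), each gene centred on its mean over the arrays. The colour gives the deviation from that mean, and most of the strong blocks follow the cell line, with the CD133+ arrays of KATO-III standing out for TARS and NARS2.

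In KATO-III, TARS and NARS2 rose the most in CD133+ cells, 2.75-fold and 2.45-fold, and genes of both compartments were called in both directions. Of the 34 genes, 12 were called higher (35.3%) and 7 lower (20.6%), beside 18.7% higher and 20.6% lower among all tested genes. Because synthetase genes are well measured, the fairer background is the 11674 genes above the floor on all 12 arrays, of which 24% were called higher and 27.4% lower. The 12 were TARS, NARS2, MARS2, FARSB, YARS2, TARS2, IARS2, MARS, EARS2, FARS2, VARS and WARS, and the 7 were VARS2, AARS2, RARS2, QARS, CARS, HARS and LARS. The median log2 difference was 0.06 over the 34 genes and 0.00 over all tested genes. The arrays measured pools of cells, so that fewer cells with a transcript and less of it per cell cannot be told apart. VIM (0.43, adjusted p 0.0057) and COL1A1 (0.84, adjusted p 0.0098), the 2 tested of 6 marker genes of other cell types, were also higher in CD133+ cells of KATO-III and were called in no other line. COL1A1 read 51.36 and 67.13 in CD133+ and 20.61 and 27.25 in CD133- cells there. Both CD133- values were under the floor and set to it, so the size and p-value of COL1A1 depend on the floor. Of 6 rows of epithelial genes, 1 was called higher and 1 lower in KATO-III, 1 and 2 in SNU-216, and 0 and 1 in SNU-601. Among genes above the floor on every array, 20.1% were called higher and 20% lower in SNU-216, and 12% and 10.4% in SNU-601. EPCAM and TACSTD1 are rows of the same gene. TACSTD1 was called higher in KATO-III (0.11, adjusted p 0.040) and lower in SNU-216 (-0.13, adjusted p 0.025), while EPCAM was called in neither (-0.13 and 0.01). CDH1, which encodes E-cadherin, was called in each line, lower in CD133+ cells of KATO-III (-0.70, adjusted p 6.8e-05) and SNU-601 (-0.26, adjusted p 0.036) and higher in SNU-216 (0.30, adjusted p 0.011). The part of these markers in the synthetase differences was not tested.

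TARS, which charges threonine tRNA, had the largest change of any synthetase gene in any line. Its intensity was 5964 and 5427 on the CD133+ arrays of KATO-III and 1819 and 2348 on the CD133- arrays, a log2 difference of 1.46 (SE 0.152, adjusted p 9.2e-05). On the 8 arrays of the other lines TARS stayed between 2277 and 3196, so the KATO-III CD133+ arrays were above all the rest. NARS2, the mitochondrial asparagine enzyme, read 2723 and 2500 in CD133+ and 1098 and 1032 in CD133- cells of KATO-III, a log2 difference of 1.29 (SE 0.0727, adjusted p 3.2e-06). Its 8 arrays in the other lines lay between 733 and 1052, again below both CD133+ arrays of KATO-III. The cytosolic asparagine gene NARS differed by 0.23 in KATO-III and was not called (adjusted p 0.22).

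MARS2, the mitochondrial methionine enzyme, followed with 609 and 708 in CD133+ and 452 and 435 in CD133- cells (0.57, SE 0.108, adjusted p 0.0029). VARS2, the mitochondrial valine enzyme, was the strongest in the opposite direction. It read 653 and 711 in CD133+ and 994 and 1004 in CD133- cells (-0.55, SE 0.0559, adjusted p 8.1e-05). FARSB, the beta subunit of the phenylalanine enzyme, was dim at 89.8 and 107 against 79.4 and 61.2 (0.49, SE 0.172, adjusted p 0.049), and its call was lost with a floor of 16 or 100 (adjusted p 0.319 and 0.756). Its partner FARSA, the alpha subunit, differed by 0.29 and was not called (adjusted p 0.10). The other calls in KATO-III had log2 differences between -0.44 (AARS2) and 0.45 (YARS2 and TARS2). The count of higher genes was 7 without the CD133+ replicate 1 array of KATO-III, and the calls of TARS, NARS2, MARS2 and VARS2 held in all 20 alternative settings.

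In SNU-216 fewer synthetase genes were called than in KATO-III. The called genes with the largest differences, FARSA, FARSB, VARS and NARS, were cytosolic, but the FARSB and NARS calls were lost in some alternative settings. The calls of FARSA and VARS and of the mitochondrial RARS2, IARS2, FARS2 and VARS2 held in all. By set, 30% of the cytosolic and 35.7% of the mitochondrial genes were called, beside 40.1% of genes above the floor on every array. Of the 34 genes 8 were called higher (23.5%) and 3 lower (8.82%), beside 14.6% and 14% of all tested genes and 20.1% and 20% of those above the floor on every array. Higher in CD133+ cells were FARSB, NARS, RARS2, FARS2, IARS2, LARS, RARS and EARS2, and lower were FARSA, VARS and VARS2. The median was 0.05, against 0.00 over all genes. The count of higher genes depended on single arrays, with 3 left without CD133+ replicate 1, 4 without CD133- replicate 1 and 5 without CD133- replicate 2 of SNU-216.

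FARSA had the largest difference in SNU-216. It read 652 and 594 in CD133+ and 920 and 1019 in CD133- cells (-0.64, SE 0.124, adjusted p 0.0047), while FARSB went the other way with 128 and 103 against 76.7 and 81.2 (0.54, SE 0.172, adjusted p 0.043). The alpha and beta chains form 1 enzyme, and their genes were called in opposite directions in this line. The FARSB call was again lost with floors of 16 and 100 (adjusted p 0.337 and 0.0996). VARS, the cytosolic valine enzyme, was 854 and 877 in CD133+ and 1233 and 1182 in CD133- cells of SNU-216 (-0.48, SE 0.048, adjusted p 0.00014). All arrays of the CD133+ fraction lay below those of the CD133- fraction for FARSA and VARS.

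NARS, the cytosolic asparagine enzyme, was higher in CD133+ cells of SNU-216, with 2441 and 1972 against 1578 and 1593 (0.47, SE 0.129, adjusted p 0.025). This call was lost on leaving out CD133+ replicate 1 (adjusted p 0.165) or either of the CD133- arrays (adjusted p 0.101 and 0.094). RARS2, the mitochondrial arginine enzyme, rose from 2134 and 2251 in CD133- to 2756 and 2794 in CD133+ cells (0.34, SE 0.0457, adjusted p 0.00068). In KATO-III the same gene was lower in CD133+ cells, at 1996 and 2140 against 2660 and 2646 (-0.36, SE 0.0457, adjusted p 0.00029). The direction of RARS2 thus turned between these lines with no overlap of the fractions in either.

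In SNU-601 most called synthetase genes were lower in CD133+ cells, and NARS and CARS fell the most. Of the 34 genes 2 were called higher (5.88%) and 8 lower (23.5%), beside 8.59% and 7.78% of all tested genes and 12% and 10.4% of those above the floor on every array. The lower genes were NARS, CARS, EARS2, WARS, IARS2, RARS2, KARS and RARS, and the higher ones LARS2 and SARS2. The median was -0.16, against 0.00 over all genes, and 13 of 34 differences were positive, as against 19 in KATO-III and 20 in SNU-216. The higher calls were unstable, with a count of 0 without a mean-variance trend in limma and of 0 also without CD133+ replicate 1, CD133+ replicate 2 or CD133- replicate 1 of SNU-601, or without either CD133+ array of SNU-216.

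NARS read 2924 and 3730 in CD133+ and 5552 and 5098 in CD133- cells of SNU-601 (-0.69, SE 0.129, adjusted p 0.0079), with an adjusted p of 0.053 without CD133- replicate 1. CARS, the cytosolic cysteine enzyme, read 1719 and 1631 against 2545 and 2653 (-0.63, SE 0.0536, adjusted p 0.00026). CARS was also lower in CD133+ cells of KATO-III, at 740 and 719 against 856 and 909 (-0.28, adjusted p 0.0033), while in SNU-216 it read 766 and 800 against 749 and 728 and was not called (adjusted p 0.31). CARS was the only cytosolic gene called lower in more than 1 line.

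EARS2, the mitochondrial glutamate enzyme, was 1276 and 1352 in CD133+ and 1763 and 1813 in CD133- cells of SNU-601 (-0.45, SE 0.0534, adjusted p 0.0011). In KATO-III it was higher in CD133+ cells, with 2413 and 2292 against 1816 and 1959, and in SNU-216 likewise, with 2505 and 2485 against 2137 and 2227 (0.19, adjusted p 0.025). The EARS2 call in SNU-216 was lost in 5 of 20 alternative settings. IARS2, the mitochondrial isoleucine enzyme, had the same pattern. It rose in KATO-III (8306 and 8048 against 6046 and 6235) and in SNU-216 (8348 and 8442 against 6777 and 7214) and fell in SNU-601 (5452 and 5550 against 6962 and 7088, -0.35, SE 0.0423, adjusted p 0.0011). WARS, the cytosolic tryptophan enzyme, read 3357 and 3412 against 4372 and 4408 in SNU-601 (-0.38, SE 0.0355, adjusted p 0.00042). In KATO-III the WARS difference was 0.11 (adjusted p 0.033), lost in 7 of 20 alternative settings.

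**Figure D2:**
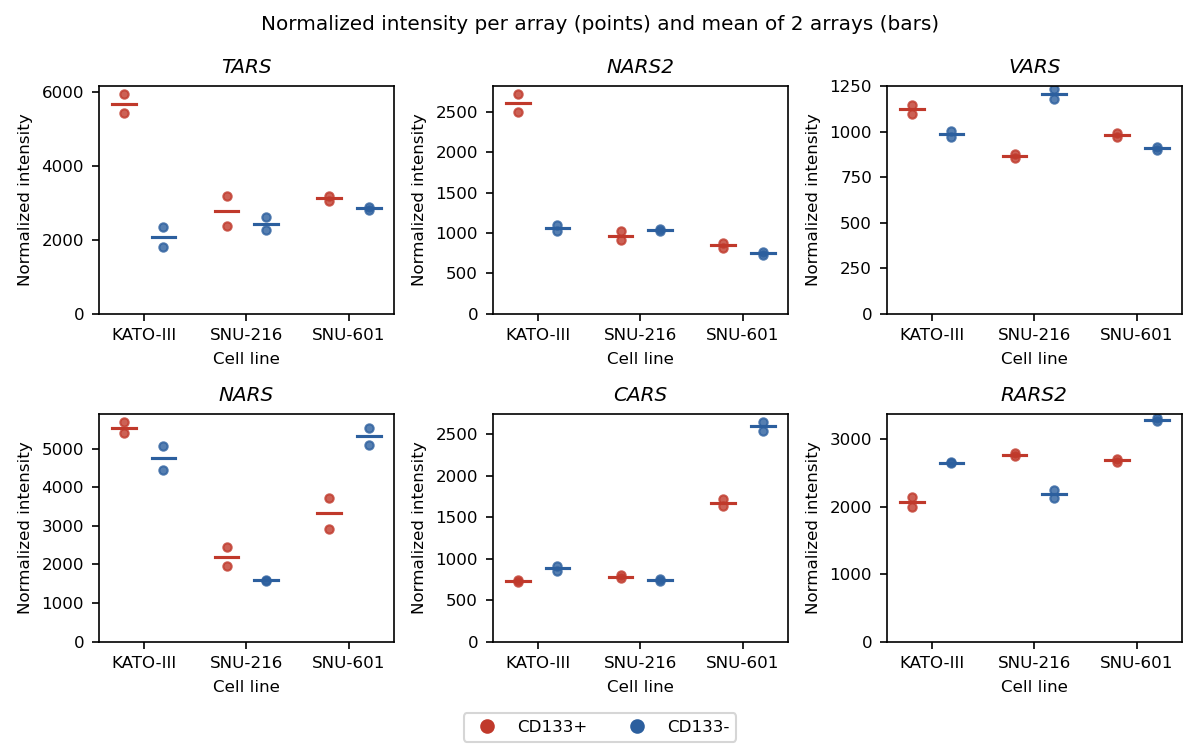
Normalized intensity (vertical axis, linear, from 0) of TARS, NARS2, VARS, NARS, CARS and RARS2 on each array (points) with the mean of the 2 arrays (bars), by cell line, CD133+ in red and CD133- in blue. TARS and NARS2 are raised in CD133+ cells of KATO-III alone among the 6 populations, and RARS2 and VARS change direction between KATO-III and SNU-216.

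Over the lines together, fitted with the line as a block on 6 CD133+ and 6 CD133- arrays, 0 synthetase genes were called by limma in either direction, beside 2.62% of all tested genes higher and 2.11% lower. At an unadjusted p under 0.05 there were 7 (20.6%), of which 5 were cytosolic and 2 mitochondrial. The shares were 24.5% of all tested genes and 29.5% of those above the floor on every array. VARS2 came closest (-0.27, SE 0.0866, adjusted p 0.093), followed by TARS (0.59, SE 0.202, adjusted p 0.11). The medians over the lines were -0.03 for the cytosolic and 0.04 for the mitochondrial set, against -0.013 for all genes. The 2 arrays of a population were counted separately in this fit, and 0 genes were called also on population means or when a random block for the population was fitted.

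The differences between the fractions depended on the line. An F test of the interaction of line and fraction called 25 of the 34 genes (73.5%), 12 of 20 cytosolic and 13 of 14 mitochondrial, beside 44.4% of all tested genes and 58.5% of those above the floor on every array. TARS2 was the 1 tested mitochondrial gene without a call (adjusted p 0.097). The smallest adjusted p-values were those of NARS2 (3.5e-05), IARS2 (4.7e-05), RARS2 (8.7e-05), EARS2 (0.00015), VARS (0.00016) and WARS (0.00017). Across the lines 8 genes were called in opposite directions, LARS, NARS, RARS, VARS and WARS of the cytosolic and EARS2, IARS2 and RARS2 of the mitochondrial set. This is 23.5% of the 34 genes, beside 10.9% of all tested genes and 17.1% of those above the floor on every array. Opposite calls in KATO-III and SNU-601 for EARS2 and IARS2, and all those of RARS2, held in all 20 alternative settings. Each of the cytosolic genes had a call that did not. Of 20 settings, 12 lost RARS in SNU-601, 7 WARS and 3 VARS in KATO-III, 3 NARS in SNU-216 and 2 LARS in KATO-III.

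No gene was called in the same direction in all 3 lines. Such calls made up 1.06% of all tested genes and 1.71% of those above the floor on every array. EARS2, IARS2 and RARS2 were called in each of the 3 lines (8.82%, beside 4.97% of all tested genes) but not in the same direction. The EARS2 call in SNU-216 was lost in 5 of 20 alternative settings, among them limma without a trend (adjusted p 0.0682) and the arrays CD133+ replicate 1, CD133+ replicate 2 or CD133- replicate 1 of SNU-216 left out (0.0988, 0.0794 and 0.123). Calls of the same direction in 2 lines were made for CARS (lower in KATO-III and SNU-601), FARSB and FARS2 (higher in KATO-III and SNU-216) and VARS2 (lower in KATO-III and SNU-216). These are 11.8%, beside 11.2% of all tested genes and 16.4% of those above the floor on every array. The FARSB call was lost in 13 of the 19 alternative settings that tested it in KATO-III and in 11 of 19 in SNU-216. The FARS2 call in KATO-III was lost in 4 of 20. VARS2 read 941 and 914 against 1132 and 1093 in SNU-216 (-0.26, adjusted p 0.0074), and 1806 and 1832 against 1877 and 1752 in SNU-601, where its fractions overlapped. FARS2, the mitochondrial phenylalanine enzyme, was 0.24 in KATO-III (adjusted p 0.015) and 0.34 in SNU-216 (adjusted p 0.0044). Calls in 1 line were made for 13 genes (38.2%, beside 33.1% of all tested genes and 35.3% of those above the floor on every array). In none of the lines 9 were called (26.5%, beside 43.8% of all tested genes and 29.5% of those above the floor on every array). The genes called in no line were AARS, DARS, EPRS, GARS, IARS, SARS and YARS of the cytosolic and CARS2 and PARS2 of the mitochondrial set.

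The genes called in no line included some of the most evenly measured ones. AARS, the alanine enzyme, ran from 12604 to 15412 over all 12 arrays, with log2 differences of -0.12, 0.05 and 0.00 between the fractions of KATO-III, SNU-216 and SNU-601. DARS, the aspartate enzyme, differed by 0.01, 0.02 and 0.05, and YARS, the tyrosine enzyme, by 0.01, -0.04 and -0.07. EPRS, which joins the glutamate and proline enzymes in 1 protein, differed by -0.12, -0.12 and 0.01. GARS, the glycine enzyme, differed by 0.15 (adjusted p 0.118), -0.16 (adjusted p 0.125) and 0.01. SE values for these 5 genes lay between 0.0475 and 0.074. PARS2, the mitochondrial proline enzyme, was dim and scattered. It read 115.8 and 147.7 against 143.4 and 119.5 in KATO-III, 132.4 and 133.5 against 87 and 106.3 in SNU-216, and 73.6 and 101.1 against 117.9 and 132 in SNU-601. Its log2 differences of 0.47 in SNU-216 and -0.53 in SNU-601 came with an SE of 0.199 and missed the threshold (adjusted p 0.12 and 0.11).

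Several further genes were called with smaller differences. YARS2 read 2944 and 3147 in the CD133+ fraction of KATO-III against 2286 and 2168 in the CD133- fraction. AARS2, the mitochondrial alanine enzyme, read 974 and 778 against 1108 and 1267 (-0.44, SE 0.106, adjusted p 0.0093). HARS, the histidine enzyme, read 1920 and 1955 against 2404 and 2272 in KATO-III (-0.27, SE 0.0515, adjusted p 0.0029). In each of these genes the fractions of KATO-III did not overlap. QARS, the glutamine enzyme, read 11270 and 11355 against 12625 and 15278 (-0.30, SE 0.0989, adjusted p 0.042), a call lost in 10 of 20 alternative settings. LARS, the leucine enzyme, was lower in KATO-III, at 2886 and 2979 against 3347 and 3323 (-0.19, adjusted p 0.013), and higher in SNU-216, at 4561 and 4467 against 3838 and 3959 (0.21, adjusted p 0.0095). In SNU-601 KARS, the lysine enzyme, was lower, at 2637 and 2639 against 2988 and 3315 (-0.26, adjusted p 0.011). SARS2, the mitochondrial serine enzyme, was higher there, at 6052 and 6022 against 4875 and 5103 (0.28, adjusted p 0.034), while SARS was 2166 and 2179 against 2639 and 3008 and missed the threshold (-0.38, SE 0.111, adjusted p 0.052).

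**Figure D3:**
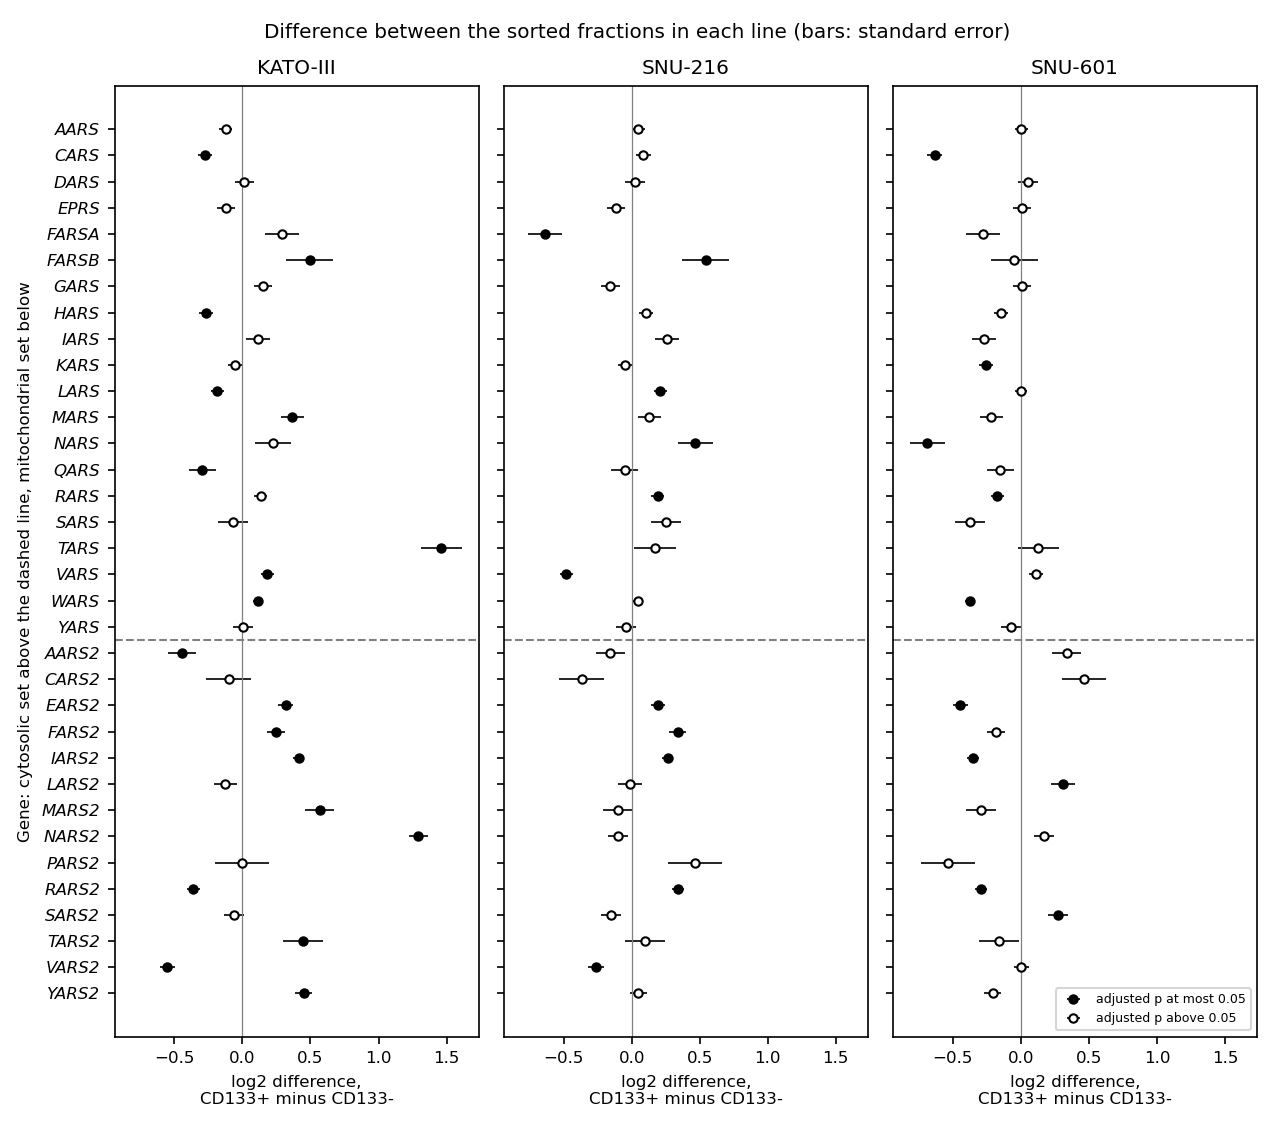
Log2 difference of CD133+ minus CD133- cells (horizontal axis) for each of the 34 genes in KATO-III, SNU-216 and SNU-601, with the standard error of the limma fit and filled symbols at an adjusted p of at most 0.05. The points of KATO-III reach 1.46 for TARS and 1.29 for NARS2, while 13 of the 34 points of SNU-601 lie to the right of 0.

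Of the 20 cytosolic genes 5, 4 and 0 were called higher and 4, 2 and 5 lower in KATO-III, SNU-216 and SNU-601. Of the 14 mitochondrial genes 7, 4 and 2 were called higher and 3, 1 and 3 lower. In percent this is 25, 20 and 0 higher and 20, 10 and 25 lower for the cytosolic set. For the mitochondrial set it is 50, 28.6 and 14.3 higher and 21.4, 7.14 and 21.4 lower. Of genes above the floor on every array, 24%, 20.1% and 12% were called higher and 27.4%, 20% and 10.4% lower. The median difference was 0.06, 0.07 and -0.15 for the cytosolic set and 0.12, 0.02 and -0.17 for the mitochondrial set. The cytosolic median minus the mitochondrial was -0.06 in KATO-III, 0.05 in SNU-216 and 0.02 in SNU-601. The centred median level of the cytosolic minus that of the mitochondrial set, taken per array, had an SD of 0.0657 between the arrays of a population. That is a spread of levels and not of differences between the fractions, so it is no test of these values. The set values were not stable in sign or size. The KATO-III value was -0.153 without its CD133- replicate 1 array and 0.062 with an offset of 100 in place of the floor, and the SNU-601 value was -0.012 without CD133+ replicate 1 and -0.064 without CD133- replicate 1 of that line. Centred on each gene's mean over the 12 arrays, the median log2 level per array ran from -0.132 to 0.086 in the cytosolic and from -0.112 to 0.172 in the mitochondrial set. Both CD133+ arrays were above both CD133- arrays of their line in KATO-III for either set and in SNU-216 for the mitochondrial set. In SNU-601 both CD133+ arrays were below both CD133- arrays for the cytosolic set, and the fractions overlapped in the other combinations.

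For 11 amino acids both the cytosolic and the mitochondrial gene were tested. In KATO-III both genes of a pair were called in the same direction for methionine (MARS and MARS2) and threonine (TARS and TARS2), all higher. The valine genes were called in opposite directions, VARS higher (0.18, adjusted p 0.015) and VARS2 lower. In SNU-216 both valine genes were called lower and both arginine genes (RARS 0.19 and RARS2 0.34) higher. In SNU-601 the arginine pair was again called together, now lower (-0.17 and -0.29), with the RARS call lost in 12 of 20 alternative settings. Pairs in which only the cytosolic gene was called numbered 2 in every line, and pairs with only the mitochondrial gene called 5, 1 and 3 in KATO-III, SNU-216 and SNU-601. The differences had the same sign in 9, 4 and 7 of the 11 pairs.

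The widest gaps within a pair were those of asparagine and threonine in KATO-III and of cysteine in SNU-601. In KATO-III the log2 difference was 1.29 for NARS2 and 0.23 for NARS, while in SNU-601 it was 0.17 for NARS2 (not called) and -0.69 for NARS. For cysteine in SNU-601 it was -0.63 for CARS and 0.46 for CARS2, the latter not called (adjusted p 0.094).

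**Figure D4:**
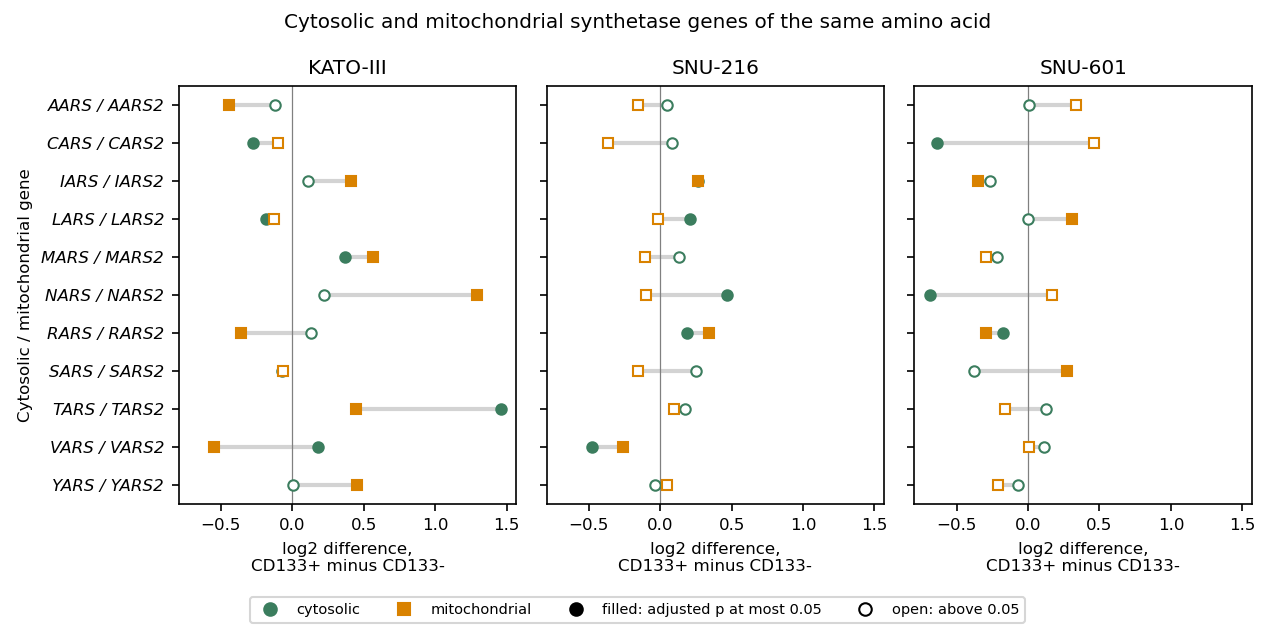
Log2 difference of CD133+ minus CD133- cells for the cytosolic (circles) and mitochondrial (squares) gene of each of 11 amino acids in the 3 lines, joined by a grey bar, with filled symbols at an adjusted p of at most 0.05. The longest bars are those of NARS and NARS2 and of TARS and TARS2 in KATO-III and of CARS and CARS2 in SNU-601.

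By place in the cell and fold, the cytosolic genes showed no group that moved as a whole. The 8 genes of the multi-synthetase complex, EPRS, IARS, LARS, QARS, MARS, KARS, RARS and DARS, had 1 higher and 2 lower calls in KATO-III, 2 and 0 in SNU-216, and 0 and 2 in SNU-601, with medians of -0.02, 0.08 and -0.16. MARS, the methionine enzyme of the complex, was the higher gene in KATO-III (0.37, SE 0.0838, adjusted p 0.0076). The 12 cytosolic genes outside the complex had 4 and 2, 2 and 2, and 0 and 3 calls, with medians of 0.13, 0.07 and -0.11. Class I genes had 3 higher and 3 lower calls in KATO-III, 2 and 1 in SNU-216 and 0 and 3 in SNU-601, out of 10. Class II genes had 2 and 1, 2 and 1, and 0 and 2, also out of 10. Among genes above the floor on every array, 24% were called higher and 27.4% lower in KATO-III. The shares were 20.1% and 20% in SNU-216 and 12% and 10.4% in SNU-601.

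The 7 cytosolic genes with the ATF4 element were no exception. TARS and MARS were called higher and CARS lower in KATO-III, NARS higher in SNU-216, and CARS and NARS lower in SNU-601, with medians of 0.15, 0.13 and -0.22. AARS, GARS and IARS, which also hold it, were called in no line. Higher and lower calls made up 24% and 27.4% in KATO-III among genes above the floor on every array. They made up 20.1% and 20% in SNU-216 and 12% and 10.4% in SNU-601. YARS2, the mitochondrial tyrosine gene with the element, was 0.45 in KATO-III (adjusted p 0.00052) and not called in the other lines. ATF4 itself differed by 0.01 in KATO-III (adjusted p 0.92), 0.16 in SNU-216 (adjusted p 0.026) and -0.22 in SNU-601 (adjusted p 0.010).

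A list of 18 genes comprising ATF4 and genes it is known to induce had 3 higher and 7 lower calls in KATO-III, 6 and 2 in SNU-216 and 2 and 3 in SNU-601, with medians of -0.04, 0.07 and -0.05. These were 16.7% and 38.9%, 33.3% and 11.1%, and 11.1% and 16.7% of the list. The shares of all tested genes were 18.7% and 20.6%, 14.6% and 14%, and 8.59% and 7.78%. For genes above the floor on every array they were 24% and 27.4%, 20.1% and 20%, and 12% and 10.4%. Some listed genes were under the floor on every array of a line, so their differences there were fixed at 0. These were PSAT1, PHGDH and VLDLR in KATO-III, CHAC1 and SLC7A11 in SNU-216, and PHGDH and VLDLR in SNU-601. They remain in the medians and shares of the list. DDIT3 and ATF3, stress-induced transcription factors, were lower in CD133+ cells of KATO-III (-0.82 and -0.94) and SNU-601 (-0.61 and -0.38) and higher in SNU-216 (0.33 and 0.50). The 3 genes called higher in KATO-III were CHAC1 (0.50), SLC7A11 (0.35) and MTHFD2 (0.29). Over the lines MTHFD2, a mitochondrial folate enzyme, was called higher (0.36, adjusted p 0.043) and DDIT4, an inhibitor of mTOR signalling, lower (-0.21, adjusted p 0.035). ASNS, which makes asparagine, differed by 0.11, 0.38 and 0.03 between the fractions (called in SNU-216 only, adjusted p 0.019).

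Partner genes of the synthetases were read beside them. EEF1E1, a scaffold protein of the complex, was 3399 and 3234 in CD133+ and 1700 and 1688 in CD133- cells of KATO-III (0.97, SE 0.0507, adjusted p 2.2e-06). It was also higher in CD133+ cells of SNU-216 (0.52, adjusted p 0.00012) and lower in SNU-601 (-0.20, adjusted p 0.029), the same order of directions as EARS2 and IARS2. AIMP2 was called in SNU-216 only (-0.34, adjusted p 0.0031), and AIMP1, listed as SCYE1, was above the floor on no array. Of the 4 genes that form glutaminyl-tRNA or formylmethionyl-tRNA in mitochondria, GATC (0.72, adjusted p 0.0018) and MTFMT (0.63, adjusted p 0.0074) were higher in CD133+ cells of KATO-III. PET112L, the B subunit of the amidotransferase, was lower in KATO-III (-0.45, adjusted p 0.00027) and SNU-216 (-0.51, adjusted p 0.00026), and QRSL1 was called in no line.

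TARSL2, a further threonine synthetase gene, was higher in CD133+ cells of KATO-III (0.75, adjusted p 0.014) and was above the floor on 7 of 12 arrays. With TARS and TARS2, the 3 threonine synthetase genes tested were called higher there. The shares called higher in KATO-III were 18.7% of all tested genes and 24% of those above the floor on every array. The TARS2 call was lost in 8 of 20 alternative settings. TARSL2 was dim, at 106 and 102.8 in CD133+ against 49.8 and 77.1 in CD133- cells, and its call was not examined in these settings. XPOT, which exports tRNA from the nucleus, was called in SNU-601 only (0.33, adjusted p 0.018). WARS is an interferon-induced gene, and 9 rows of other interferon genes were read beside it, with 3 higher and 2 lower calls in KATO-III, 3 and 4 in SNU-216 and 5 and 0 in SNU-601. These were 33.3% and 22.2%, 33.3% and 44.4%, and 55.6% and 0% of the rows. The shares of all tested genes were 18.7% and 20.6%, 14.6% and 14%, and 8.59% and 7.78%. For genes above the floor on every array they were 24% and 27.4%, 20.1% and 20%, and 12% and 10.4%. INDO and IDO1 among these rows are the same gene and were read differently in KATO-III. INDO was among the higher calls there (1.21, adjusted p 5.9e-05), while IDO1 was not called (0.18, adjusted p 0.25). INDO was dim, at 86.61 and 79.63 in CD133+ against 17.49 and 39.34 in CD133- cells, so its difference depends on the floor. GBP1, an interferon-induced GTPase, was called higher over the lines (0.69, adjusted p 0.0027). In SNU-601 WARS was lower in CD133+ cells while GBP1 was higher (0.69, adjusted p 0.0011).

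Levels also differed between the lines. On the mean of both fractions, 12 of 34 genes were higher and 10 lower in SNU-216 than in KATO-III, beside 31.7% and 30.3% of all tested genes. In SNU-601 against KATO-III, 12 were higher and 11 lower, beside 29.9% and 28.7%, and in SNU-601 against SNU-216, 12 were higher and 15 lower, beside 27.1% and 29.4%. Among genes above the floor on every array the shares were 38.2% and 34.5%, 36.7% and 34.6%, and 33.4% and 37.4% in the same order, near those of the synthetase genes. By the mean of a line, 9 of 14 mitochondrial genes were lowest in SNU-601, 2 in SNU-216 and 3 in KATO-III, and of the 20 cytosolic genes 4 were lowest in SNU-601, 9 in SNU-216 and 7 in KATO-III. Of those 9, AARS2, PARS2 and TARS2 were called different from neither other line, and LARS2 from SNU-216 only. The share of all tested genes lowest in SNU-601 was not computed, so these counts are no result about the sets.

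SARS, the cytosolic serine enzyme, had the widest range between lines. It read 2166, 2179, 2639 and 3008 in SNU-601, 1013 to 1250 in KATO-III and 691 to 888 in SNU-216, with no overlap between the lines. The log2 difference of SNU-601 and SNU-216 was 1.60 (SE 0.0788, adjusted p 8.8e-08). FARSB was at or near the floor in SNU-601, at 17.7, 13.1, 34.9 and 8.83, and lay between 61.2 and 128 in the other lines. NARS was lowest in SNU-216, at 1578 to 2441, and lay between 4458 and 5705 in KATO-III, a log2 difference of -1.46 (SE 0.0915, adjusted p 5.3e-07). SNU-601 spanned 2924 to 5552 for NARS, from its CD133+ to its CD133- arrays, and so overlapped with KATO-III.

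WARS was high in KATO-III, at 7859 to 8593, and lay at 3705 to 3916 in SNU-216 and 3357 to 4408 in SNU-601. The latter lines did not differ on the mean of their fractions (log2 difference 0.03, SE 0.0251, adjusted p 0.39). CARS was high in SNU-601 at 1631 to 2653 and lay at 719 to 909 in both other lines.

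Among the mitochondrial genes VARS2, NARS2 and CARS2 had the widest ranges between lines. VARS2 was highest in SNU-601, at 1752 to 1877, against 653 to 1132 over the other lines, a log2 difference of 1.14 from KATO-III (SE 0.0395, adjusted p 1.3e-08). CARS2 read 498 to 743 in SNU-601, 402 to 570 in SNU-216 and 291 to 432 in KATO-III, in that order, and SNU-601 and SNU-216 did not differ beyond the test (0.29, SE 0.116, adjusted p 0.058). NARS2 was highest in KATO-III through its CD133+ cells, while its CD133- arrays of 1098 and 1032 lay close to the 913 to 1052 of SNU-216. MARS2 was lowest in SNU-601, at 265 to 358, and read 435 to 708 in KATO-III and 509 to 605 in SNU-216.

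**Figure D5:**
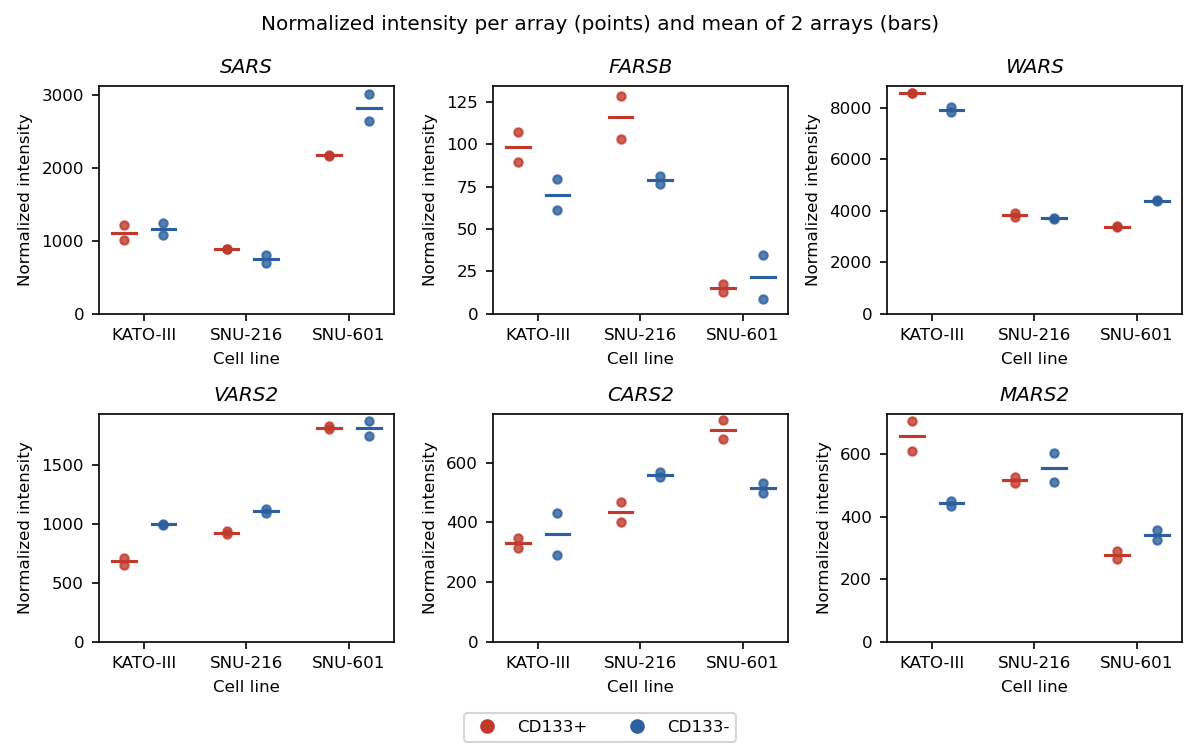
Normalized intensity (vertical axis, linear, from 0) of SARS, FARSB, WARS, VARS2, CARS2 and MARS2 on the 12 arrays (points, CD133+ in red and CD133- in blue) with the mean of the 2 arrays of a population (bars). SARS and VARS2 are highest in SNU-601, WARS in KATO-III, and FARSB and MARS2 are lowest in SNU-601.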

How the data were processed

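RNA of 12 sorted samples was hybridized to Illumina HT-12 v3 BeadChips. The authors deposited intensities made with BeadStudio and quantile-normalized, in a linear table with a row per gene symbol, and 32.1% of the values are at or below 0. The rule for genes with several probes is not given in the sources used here. Of 34688 rows 93 were empty. Between 16320 and 16474 genes per array exceeded the floor of 32.7, set from the 1st percentile of the whole table with its sign dropped. The number of arrays limits the precision.

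Samples were grouped by the array labels. Within-line differences, the interaction and line differences came from limma 3.58.1 (R 4.3.3) with a mean-variance trend, in a model with a mean per population (6 residual degrees of freedom). The fit over the lines had line as a block (8 residual degrees of freedom) and Benjamini-Hochberg adjustment over 20147 genes. A gene was named with its array values if it was among the 5 largest called changes in a line or the 3 widest line ranges of a set, and partner genes if called over the lines or in all 3 lines. Array values of HARS, QARS, LARS, KARS, SARS2, AARS2, YARS2, PARS2 and AARS were added outside this rule after they were seen. CDH1, VIM, COL1A1, CHAC1, SLC7A11, ATF4, DDIT3, ATF3, ASNS, AIMP2, GATC, MTFMT, PET112L, QRSL1, TARSL2 and XPOT were named after their values were seen. Members, lists and the motif were chosen with earlier results of these data known. Replicate numbers did not pair the arrays, since over 15 pairs of populations the deviations correlated at -0.0116 to 0.0276. Alternatives covered the floor, normalization, filter, trend, replicate block and each array left out. Scripts were tested on simulated data. Promoters came from RefSeq and were matched by symbol, 29 of 35. Motifs and figures were made in Python 3.11.15 with pandas 2.3.3 and matplotlib 3.10.9.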

Additional observations from a re-analysis of the deposited data

Results flagged for a closer look

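The difference between CD133+ and CD133- cells itself differed between the 3 lines for 25 of the 34 tested synthetase genes, by limma's F test of the interaction of line and fraction on 12 arrays, and these are given for a closer look. Among the cytosolic genes the adjusted p-values were 0.0001578 for VARS, 0.000168 for WARS, 0.000301 for CARS, 0.001481 for TARS, 0.002001 for NARS, 0.003756 for LARS and 0.004167 for RARS. They were 0.006606 for FARSA, 0.007397 for HARS, 0.009705 for MARS, 0.01811 for IARS and 0.02813 for SARS. Among the mitochondrial genes they were 3.52e-05 for NARS2, 4.668e-05 for IARS2, 8.706e-05 for RARS2, 0.0001481 for EARS2, 0.001148 for YARS2, 0.001488 for VARS2, 0.003353 for FARS2 and 0.003717 for MARS2. They were 0.006923 for AARS2, 0.01821 for SARS2, 0.03968 for LARS2, 0.04063 for CARS2 and 0.0457 for PARS2. IARS, SARS, CARS2 and PARS2 were called by this test and in no line by itself.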

How the results depend on the processing

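Of 40 single-gene calls within a line, 21 held in all 20 alternative settings, 19 were lost in at least 1 and 0 reversed. The 8 settings that kept all arrays lost 11. The count of genes higher in SNU-601, 2, was 4 among genes above the floor on all 12 arrays, 0 with limma without a trend and 1 with the replicate number as a block. The replicate block also lost FARSB in KATO-III (adjusted p 0.0606) and SNU-216 (0.0545), QARS in KATO-III (0.0577), LARS2 (0.0546) and RARS (0.0531) in SNU-601, and no other call within a line. The cytosolic minus mitochondrial median in KATO-III was 0.062 with an offset of 100 without a floor, against -0.059. The causes were not tested.

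On leaving out each array, the count of higher genes ranged from 7 to 12 in KATO-III, 3 to 8 in SNU-216 and 0 to 2 in SNU-601, and the set difference from -0.153 to -0.023 in KATO-III and from -0.064 to 0.084 in SNU-601. A population left with 1 array was assumed to vary like the others. Lower calls ranged from 5 to 7, 3 to 4 and 6 to 8, interaction calls from 19 to 23, and calls over the lines stayed at 0.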
